A study of Mus musculus with 18 samples.

Results

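The genes described here are 10 components and close partners of the mammalian circadian clock: Arntl, Per1, Per2, Per3, Cry1, Dbp, Tef, Nr1d1, Nr1d2 and Bhlhe41. They were chosen by gene name, and 9 of the 10 had read counts among the 15194 genes that the deposited tables list. Cry1, which encodes a repressor of the clock, is not listed in those tables and was not analysed here. Transcript levels were measured by RNA sequencing in 3T3-L1, an embryonic mouse fibroblast line whose cells turn into fat-storing adipocytes when differentiation is induced in culture. The genetic backgrounds compared were control cells (CTL), cells lacking MLKL (MLKL-/-) and cells lacking RIPK3 (RIPK3-/-), each as untreated preadipocytes (J0) and as differentiated cells (J7). MLKL disrupts the plasma membrane in necroptosis, a form of programmed cell death, after phosphorylation by the kinase RIPK3. Each of the 6 groups had 3 libraries. The labels do not say how the knockouts were made, whether each line is 1 clone, what induced differentiation, at which hour cells were collected or whether the 3 libraries are separate cultures, so the p-values below measure only the spread between these libraries.

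The clock of mammalian cells is a feedback loop of transcription. BMAL1, the protein of Arntl, pairs with CLOCK and switches on genes that carry E-box sequences, among them the Per and Cry genes, Nr1d1, Nr1d2, Dbp, Tef and Bhlhe41. PER and CRY proteins return to the nucleus and block BMAL1 and CLOCK, while REV-ERB alpha and beta, the products of Nr1d1 and Nr1d2, repress Arntl at sites that they share with the activating ROR receptors. DBP and TEF are PAR bZIP activators that bind D-box sequences, and BHLHE41 (DEC2) competes for E-boxes. Cultured fibroblasts keep such clocks, glucocorticoid and cAMP induce Per1 directly, and Nr1d1 is known to rise during adipocyte differentiation of 3T3-L1 cells. In a population sampled at 1 time, a changed level of a clock gene cannot be told apart from a shift in phase, a change in synchrony or a change in mean level.

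Promoter sequence was examined first, because the regulatory arms of the loop can be read in it. RefSeq windows of 300 bases on build GRCm38.p6, the assembly of mm10, cover 250 bases before and 50 after an annotated start, and 9 of the 10 genes had at least 1 such window, 12 windows in all. Per2 had none. Both strands were searched for 5 motifs that share no full copy with each other, and capitals in the sequences mark the matches. The E-box CACGTG is the site of BMAL1 and CLOCK, and the variant CACGTT, which reads AACGTG on the opposite strand, is also bound by them. TTANGTAA is the D-box core bound by DBP and TEF, AGGTCA is the half-site of ROR and REV-ERB receptors, and TGACGTCA is the cAMP response element. Of 32851 promoter windows of this length in the RefSeq table, 7.15% held CACGTG, 4.68% CACGTT, 2.32% the D-box, 16.3% AGGTCA and 1.79% the cAMP response element. Those of 4 genes are shown, 1 for each arm: Arntl for the receptor half-site, Per1 for the E-box, Nr1d1 for the E-box variant and Per3 for the D-box. They lie at chr7:113207261-113207560 on the plus strand (Arntl), chr11:69098699-69098998 on the plus strand (Per1), chr11:98775328-98775627 on the minus strand (Nr1d1) and chr4:151044616-151044915 on the minus strand (Per3).
Arntl: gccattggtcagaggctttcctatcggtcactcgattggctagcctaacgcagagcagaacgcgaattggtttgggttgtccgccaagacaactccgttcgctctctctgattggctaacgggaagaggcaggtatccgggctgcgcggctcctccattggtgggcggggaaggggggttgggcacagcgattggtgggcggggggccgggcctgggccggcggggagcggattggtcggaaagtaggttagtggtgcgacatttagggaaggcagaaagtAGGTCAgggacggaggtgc
Per1: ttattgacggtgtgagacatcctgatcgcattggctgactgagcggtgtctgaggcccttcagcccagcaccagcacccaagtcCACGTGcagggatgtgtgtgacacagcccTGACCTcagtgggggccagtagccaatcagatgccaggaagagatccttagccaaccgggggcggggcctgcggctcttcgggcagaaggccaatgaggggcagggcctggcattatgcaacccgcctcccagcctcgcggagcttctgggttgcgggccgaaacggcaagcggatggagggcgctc
Nr1d1: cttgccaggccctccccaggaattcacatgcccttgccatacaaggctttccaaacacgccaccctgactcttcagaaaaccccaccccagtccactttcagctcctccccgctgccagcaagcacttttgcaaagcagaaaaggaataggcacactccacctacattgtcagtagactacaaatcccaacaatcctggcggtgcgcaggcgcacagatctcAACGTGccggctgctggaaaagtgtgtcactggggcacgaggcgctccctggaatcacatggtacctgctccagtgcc
Per3: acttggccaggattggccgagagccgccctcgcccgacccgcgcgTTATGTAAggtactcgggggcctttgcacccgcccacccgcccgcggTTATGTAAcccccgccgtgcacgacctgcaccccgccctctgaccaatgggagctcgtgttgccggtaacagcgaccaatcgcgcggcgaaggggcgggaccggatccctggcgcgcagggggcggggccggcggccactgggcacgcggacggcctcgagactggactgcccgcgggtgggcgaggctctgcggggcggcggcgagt
The Arntl window shown had 1 AGGTCA, from base 31 to 36 after the start. The Per1 window shown had CACGTG from base -166 to -161 and AGGTCA, written TGACCT on this strand, from base -137 to -132. In the Nr1d1 window AACGTG stood at base -28 to -23. The Per3 window held 2 copies of TTATGTAA, at base -205 to -198 and base -158 to -151. Among the windows not printed, CACGTG also occurred in those of Bhlhe41, Cry1 and Tef, AACGTG in that of Cry1 and AGGTCA in that of Nr1d2. None of the 5 motifs was in the Dbp window. Arntl and Per1 each have another window, at chr7:113207215-113207514 and chr11:69099902-69100201, and these held none of the 5 either. The cAMP response element was in none of the 12. A match is only a string of letters in a short window and does not show that the factor binds there.

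Some facts of the data set bear on every value. Library totals were 20.2 to 36.9 M reads, and levels are given as CPM, reads per M reads of that total. A gene is listed in a deposited table only where the authors' own adjusted p for that pair of groups was under 0.05, so Per3 had no counts in J0_CTL and Bhlhe41 none in J7_MLKL, and all background shares below refer to preselected genes. Reads of listed genes made up 90.0 to 98.4% of a library in CTL and RIPK3-/- cells, 29.3 to 30.4% in J0_MLKL and 53.5 to 54.5% in J7_MLKL. Group names follow the sample titles, because the genotype entry of all 6 differentiated knockout samples names the other knockout. Mlkl RNA was 26.3 ± 1.10 CPM (SD, n = 3) in J7_CTL, 29.1 ± 2.94 CPM in J7_RIPK3 and 15.1 ± 1.24 CPM in J7_MLKL, and Ripk3 RNA was 18.3 ± 0.842, 10.9 ± 0.750 and 9.23 ± 2.40 CPM in the same groups. At J0, Mlkl was 18.9 ± 0.793 CPM in CTL, 15.9 ± 1.62 in RIPK3-/- and 8.05 ± 1.45 in MLKL-/- cells, and Ripk3 was 18.2 ± 1.40, 15.9 ± 1.31 and 7.45 ± 1.87 CPM. The edited positions are not given, so persisting RNA does not check the labels. The summed level of 7 adipocyte markers (Adipoq, Fabp4, Plin1, Pparg, Cebpa, Lpl, Cidec) was 290 to 507 CPM in the J0 libraries, with Adipoq at 0 in J0_CTL and J0_MLKL. It was 21200 to 22200 CPM in J7_CTL, 23300 to 25200 CPM in J7_RIPK3 and 3520 to 5040 CPM in J7_MLKL. Of 7 fibroblast or preadipocyte markers, the sum was 8190 to 8250 CPM in J7_CTL, 5120 to 5420 CPM in J7_RIPK3 and 22500 to 23700 CPM in J7_MLKL.

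A pair of libraries stood apart from their groups, J0_MLKL 2 and J7_MLKL 3. The chi-square per degree of freedom between libraries of a group was 2.65 to 5.56 elsewhere, but 44.1 and 50.2 for J0_MLKL 2 and 199 and 190 for J7_MLKL 3 against the other libraries of their groups. Of the 8 clock genes with counts in both groups, 8 deviated in the same direction in both libraries, beside 81.0% of all genes compared. Per2 was 16.2 CPM in J7_MLKL 3 and 40.9 CPM on average in J7_MLKL 1 and 2, a deviation of -1.31 on the log2 scale (with 0.5 CPM added), and in J0_MLKL 2 its deviation was -0.45. Nr1d2 deviated by -1.15 and -0.72, Per3 by -0.90 and -0.54, Arntl by -0.50 and -0.38 and Per1 by -0.42 and -0.19. Dbp deviated upwards, by 0.62 in J7_MLKL 3 and 0.49 in J0_MLKL 2, whereas Nr1d1 (0.04 and 0.06) hardly moved. Tef deviated by -0.32 and -0.08. The median absolute deviation of these 8 genes was 0.56 and 0.42, beside 0.38 and 0.21 over 2568 genes, of which 81.0% deviated in the same direction in both. Across those genes the deviations had a Pearson r of 0.83, where genes are not independent replicates. Adipocyte markers also differed there, not all in 1 direction. Fabp4, the fatty acid binding protein of adipocytes, was 2020 CPM in J7_MLKL 3 against 723 and 883 CPM in J7_MLKL 1 and 2. Adipoq, Plin1, Pparg, Cebpa and Cidec were also higher in J7_MLKL 3. Lpl was lower, at 1680 CPM against 2130 and 2180 CPM. What sets these libraries apart was not tested. Where leaving them out changes a call or moves a called value by over 1.5 times, both values are given.

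**Figure D1:**
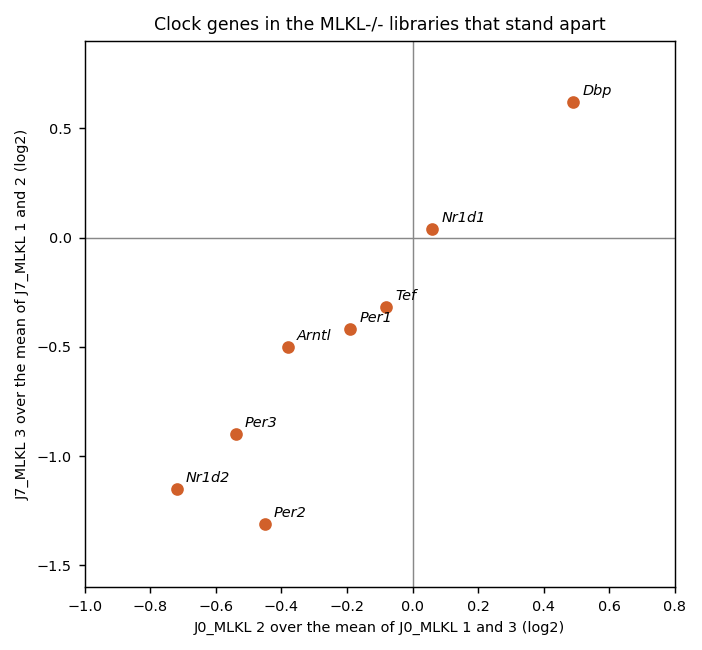
Each point is 1 clock gene; the x axis is its log2 deviation in J0_MLKL 2 from the mean of the remaining libraries of that group, and the y axis the same for J7_MLKL 3. All 8 genes lie to the lower left or upper right of the origin, with Per2, Nr1d2 and Per3 lowest and Dbp highest.

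Arntl, the positive limb of the loop, was lowest by far in differentiated MLKL-/- cells. Its level was 21.9, 21.1 and 22.6 CPM in the 3 libraries of J0_CTL, 19.1, 16.6 and 16.9 CPM in J0_RIPK3 and 17.9, 13.8 and 18.6 CPM in J0_MLKL. After differentiation it was 26.9, 29.6 and 26.3 CPM in J7_CTL, 21.0, 19.5 and 19.5 CPM in J7_RIPK3, and 4.71, 6.63 and 3.86 CPM in J7_MLKL. J7_MLKL was the only group below 13.8 CPM, and its 3 libraries lay under every other library of the study. From the lowest mean to the highest, the order was J7_MLKL, J0_MLKL, J0_RIPK3, J7_RIPK3, J0_CTL and J7_CTL, and among neighbours only the ranges of J0_MLKL and J0_RIPK3 overlapped.

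The repressors of Arntl, Nr1d1 and Nr1d2, were both higher at J7 in all lines. Nr1d1 was 13.7, 13.2 and 13.0 CPM in J0_CTL, 17.4, 15.6 and 18.5 CPM in J0_RIPK3 and 20.4, 20.4 and 18.7 CPM in J0_MLKL. At J7 it was 81.6, 77.4 and 84.9 CPM in CTL, 88.1, 88.4 and 92.9 CPM in RIPK3-/- and 76.8, 65.3 and 72.9 CPM in MLKL-/- cells. No J7 library of Nr1d1 came near a J0 library, and the 6 groups had no overlap between neighbours. The 3' end of Nr1d1 shares 1075 bases with Thra, which codes for a thyroid hormone receptor on the opposite strand, and a strand setting for the counting is not given in the sources used here. Thra went the other way in control cells, from 359 ± 3.90 CPM at J0 to 149 ± 6.18 CPM at J7 (n = 3 each). It was 305 ± 10.5 CPM in J0_RIPK3, 111 ± 5.05 CPM in J7_RIPK3 and 324 ± 1.38 CPM in J7_MLKL, above Nr1d1 in each group. The part of Thra in the Nr1d1 counts and comparisons was not tested. Long non-coding RNA genes overlap the annotated spans of other members: Gm33721 shares 18143 bases with Arntl, Gm35591 14768 with Per2 and Gm17597 193 with Tef. Their part in the counts of these members was not tested. Nr1d2 was 28.3, 27.4 and 31.3 CPM in J0_CTL, 37.0, 37.5 and 37.6 CPM in J0_RIPK3 and 40.8, 25.6 and 44.3 CPM in J0_MLKL. Its J7 levels were 53.9, 57.6 and 58.1 CPM in CTL, 66.8, 62.3 and 64.5 CPM in RIPK3-/- and 97.2, 94.6 and 43.0 CPM in MLKL-/- cells. In the MLKL-/- line the third J7 library thus fell below the third J0 library, and the groups overlapped.

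Of the Period genes, the negative limb, Per1 and Per2 were higher at J7 in the 3 lines, and Per3 in both knockouts. In control cells Per3 is not listed by the authors for J7 against J0 and could not be tested. Per1 was 37.5, 36.2 and 38.0 CPM in J0_CTL, 36.5, 35.4 and 34.5 CPM in J0_RIPK3 and 39.8, 35.9 and 42.1 CPM in J0_MLKL. At J7 Per1 was 123, 124 and 123 CPM in CTL, 118, 103 and 120 CPM in RIPK3-/- and 98.6, 96.5 and 72.8 CPM in MLKL-/- cells. The J0 groups overlapped for Per1, while the J7 groups did not. Per2 was 15.5, 15.0 and 14.7 CPM in J0_CTL, 16.3, 13.2 and 14.9 CPM in J0_RIPK3 and 14.9, 10.8 and 15.0 CPM in J0_MLKL. At J7 it was 27.8, 28.0 and 27.2 CPM in CTL, 30.0, 30.5 and 31.6 CPM in RIPK3-/- and 40.1, 41.7 and 16.2 CPM in MLKL-/- cells. The third J7_MLKL library was thus near the J0 level of Per2. Per3 was 31.3, 29.7 and 32.5 CPM in J0_RIPK3 and 32.5, 22.1 and 32.1 CPM in J0_MLKL. Its J7 levels were 34.4, 37.4 and 39.5 CPM in CTL, 56.2, 53.5 and 58.1 CPM in RIPK3-/- and 87.0, 93.2 and 47.9 CPM in MLKL-/- cells. Both knockouts exceeded control in every J7 library of Per3.

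The PAR bZIP genes, clock outputs that act on D-boxes, were higher in both knockouts than in control cells at J7. Dbp was 26.9, 24.3 and 26.8 CPM in J0_CTL, 29.4, 27.2 and 27.5 CPM in J0_RIPK3 and 32.4, 45.6 and 32.5 CPM in J0_MLKL. At J7 Dbp was 35.0, 34.9 and 36.7 CPM in CTL, 59.5, 67.1 and 58.8 CPM in RIPK3-/- and 89.0, 80.3 and 131 CPM in MLKL-/- cells. The 3 J7 groups were separate, with control lowest and MLKL-/- highest. Dbp shares 741 bases with the sphingosine kinase gene Sphk2, whose level was 91.4 ± 1.82 CPM in J7_CTL, 75.9 ± 1.27 CPM in J7_RIPK3 and 34.1 ± 9.14 CPM in J7_MLKL, the reverse order. At J0 Sphk2 was 30.2 ± 0.649 CPM in CTL and 26.8 ± 1.12 CPM in RIPK3-/- cells. The part of Sphk2 in the Dbp counts was not tested. Tef was 173, 184 and 173 CPM in J0_CTL, 199, 194 and 198 CPM in J0_RIPK3 and 216, 204 and 214 CPM in J0_MLKL. At J7 Tef was 128, 129 and 132 CPM in CTL, 160, 159 and 163 CPM in RIPK3-/- and 273, 273 and 218 CPM in MLKL-/- cells. No neighbouring groups overlapped for Tef, and at both stages its order was control, RIPK3-/-, MLKL-/-. Bhlhe41, the E-box repressor, had 13.7, 12 and 13.4 CPM in J0_CTL, 17.0, 18.1 and 14.8 CPM in J0_RIPK3 and 22.6, 21.0 and 21.6 CPM in J0_MLKL. Its J7 levels were 15.0, 16.3 and 18.6 CPM in CTL and 25.7, 25.0 and 23.9 CPM in RIPK3-/- cells.

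**Figure D2:**
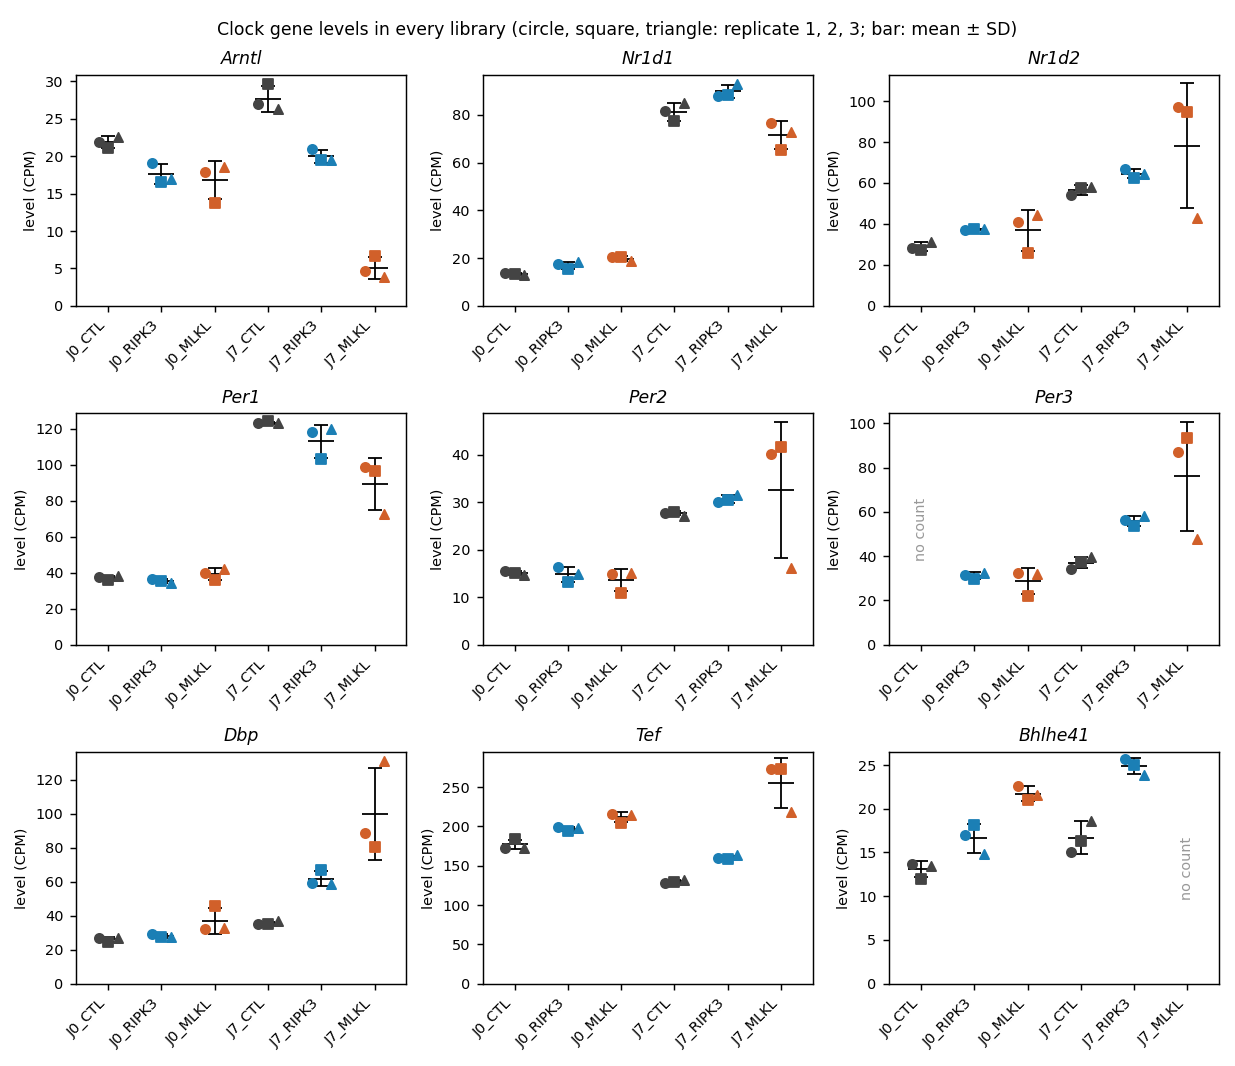
Level of 9 clock genes in CPM (y axes, from 0) in each of the 18 libraries, by group (x axes); symbols are replicates 1, 2 and 3, and bars the mean ± SD of 3 libraries. Arntl is lowest in J7_MLKL, Dbp climbs from control to MLKL-/- at J7, and the triangle of J7_MLKL lies far below the circle and square for Per2, Per3 and Nr1d2.

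Compared per gene length, in the authors' FPKM, the most abundant members changed with stage and line. In J0_CTL Tef led with 22.5 ± 0.766 FPKM, ahead of Dbp with 8.69 ± 0.486 and Per1 with 6.61 ± 0.172 FPKM (SD, n = 3), and Bhlhe41 was lowest of the 8 with counts there, at 1.94 ± 0.132 FPKM. In J7_CTL Nr1d1 led with 26.4 ± 1.22 FPKM, followed by Per1 with 21.9 ± 0.0935 and Tef with 16.5 ± 0.276 FPKM. In J7_MLKL the leading members were Dbp with 33.4 ± 9.0 and Tef with 32.4 ± 4.0 FPKM, and Arntl was lowest of the 8 with counts there, at 0.674 ± 0.189 FPKM. The SDs of Dbp and Tef there exceed their difference.

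Differentiation was compared first in each line, as J7 against J0. In control cells all 8 testable members were called: 7 rose and only Tef fell. Each of the 8 is listed by the authors for this pair, and so had already passed their adjusted p of 0.05. The number called therefore says little about the members. Per3 and Cry1 are not listed for this pair. Nr1d1 rose most, 6.11-fold (log2 fold change 2.57 ± 0.05 SE, adjusted p = 2.59e-23), and Per1 rose 3.31-fold (1.68 ± 0.04, adjusted p = 1.22e-22). The rises were 0.92 ± 0.05 for Nr1d2, 0.83 ± 0.06 for Per2, 0.41 ± 0.06 for Dbp, 0.31 ± 0.09 for Bhlhe41 and 0.29 ± 0.06 for Arntl on the log2 scale, with adjusted p of 0.0018 or less. Tef fell by 0.49 ± 0.03 (adjusted p = 1.16e-12). These counts stand against a background in which nearly every preselected gene passed: the higher calls made up 48.2% of 12055 tested genes and the lower calls 47.6%. The median absolute log2 change of the members was 0.66, beside 0.84 over all genes tested.

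In RIPK3-/- cells 7 of 9 members rose, Tef fell and Arntl did not pass the test. The called members are all listed by the authors for this pair and Arntl is not. The number called thus says little about the members here too. Nr1d1 rose 5.25-fold (2.35 ± 0.06, adjusted p = 1.37e-19), Per1 3.18-fold (1.65 ± 0.06, adjusted p = 2.07e-17) and Dbp 2.20-fold (1.11 ± 0.06, adjusted p = 4.7e-14). Per2 (1.02 ± 0.08), Per3 (0.81 ± 0.06), Nr1d2 (0.76 ± 0.05) and Bhlhe41 (0.56 ± 0.08) were also higher, and Tef fell by 0.32 ± 0.04. The call of Tef was lost in 1 fit over all 6 groups (-0.10, adjusted p = 0.184). Arntl had 0.16 ± 0.08 (adjusted p = 0.0526), although its ranges did not overlap, and it was called higher, at 0.19, under each of the 3 other scalings. In all, 49.3% of 11798 genes were called higher and 48.5% lower. The median absolute change was 0.81 for members and 0.94 for all genes.

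In MLKL-/- cells Arntl fell, 6 of the 8 testable members rose and Tef was not called. For this pair too, the authors list every called member and not Tef, so the number called largely repeats their filter. Arntl was 3.31-fold lower at J7 (log2 fold change -1.76 ± 0.24, adjusted p = 0.00132), and without both libraries that stand apart the value was again -1.76. Nr1d1 rose by 1.82 ± 0.10 (adjusted p = 8.15e-05), Dbp by 1.41 ± 0.23 (0.00242), Per3 by 1.36 ± 0.28 (0.00562) and Per1 by 1.15 ± 0.14 (0.000943). Per2 rose by 1.23 ± 0.36 (adjusted p = 0.0215) and Nr1d2 by 1.04 ± 0.35 (0.0345), but both calls were lost when any 1 of the 3 J0_MLKL libraries, or J7_MLKL 1 or 2, was left out (adjusted p from 0.0512 to 0.102). With a replicate block they had adjusted p of 0.0605 and 0.0877. Without both libraries that stand apart, Per2 rose by 1.39 and Nr1d2 by 1.11. Tef, at 0.23 ± 0.11 (adjusted p = 0.104) in all libraries, was then called higher at 0.28. All 8 members were called in that fit, beside 2546 of all 3103 genes tested. With all libraries the background was 35.8% of 3075 genes called higher and 30.9% lower. The median absolute change was 1.29 for members and 0.77 over all genes.

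**Figure D3:**
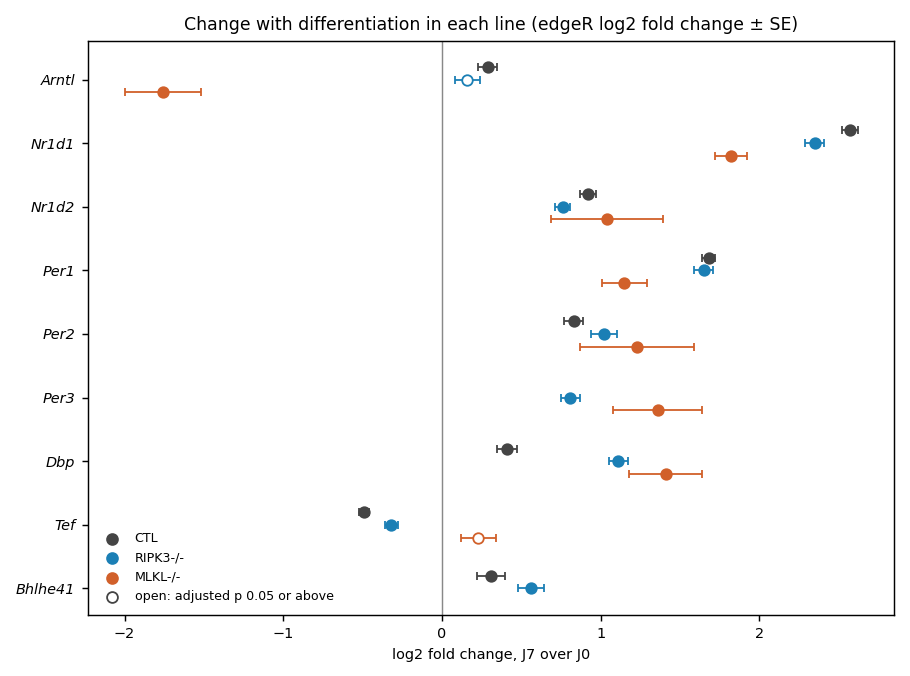
The log2 fold change of J7 over J0 (x axis, ± SE) for each clock gene (y axis) in control, RIPK3-/- and MLKL-/- cells; open points did not pass the adjusted p of 0.05. Arntl moves left to -1.76 in MLKL-/- cells only, and Tef lies left of 0 in control and RIPK3-/- cells.

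Whether the knockout changed the response to differentiation was tested as an interaction, the J7 over J0 log2 change of the knockout less that of control. For MLKL-/- cells 5 of 7 testable members differed: the changes of Dbp and Tef were higher and those of Arntl, Nr1d1 and Per1 lower. The difference was -2.10 ± 0.25 for Arntl (log2, adjusted p = 1.63e-05), -0.79 ± 0.11 for Nr1d1 (5.96e-05), -0.58 ± 0.15 for Per1 (0.0051), 0.96 ± 0.25 for Dbp (0.00563) and 0.68 ± 0.12 for Tef (0.000311). Per2, at 0.35 ± 0.39 (adjusted p = 0.445), and Nr1d2, at 0.08 ± 0.38 (0.866), did not pass. Without J7_MLKL 3 the difference of Per2 was 0.68 and was called. Of 3033 genes, 39% had a higher and 26.3% a lower change, and the higher calls were 59.8% of all calls. DESeq2 size factors shifted the median of all genes by -0.32 and gave 48.8%; the 5 members were called under them too, at -2.42 for Arntl, -1.11 for Nr1d1, -0.90 for Per1, 0.65 for Dbp and 0.36 for Tef. Differentiation itself differed between the lines by the adipocyte markers given above (3520 to 5040 CPM in J7_MLKL, 21200 to 22200 CPM in J7_CTL), and fewer adipocytes cannot be told apart from less RNA per cell in bulk libraries. The part of these markers in the clock gene results was not tested.

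For RIPK3-/- cells 2 of 8 members differed from control in their change with differentiation. The rise of Dbp was greater by 0.72 ± 0.08 (log2, adjusted p = 3.02e-08) and the fall of Tef smaller by 0.19 ± 0.05 (0.00238), a call lost in 1 fit over all 6 groups (0.21, adjusted p = 0.139). The other 6 did not pass, with differences from -0.19 ± 0.08 for Nr1d1 (adjusted p = 0.0668) to 0.27 ± 0.12 for Bhlhe41 (0.0753). Among 11027 genes, 18.4% had a higher change and 20.6% a lower one. The summed adipocyte markers were 23300 to 25200 CPM in J7_RIPK3 and 21200 to 22200 CPM in J7_CTL, but single markers went opposite ways, Pparg with 353 to 387 against 487 to 499 CPM and Lpl with 9460 to 9890 against 7240 to 7550 CPM. Fibroblast markers summed to 5120 to 5420 against 8190 to 8250 CPM, and the part of either list in these results was not tested. With DESeq2 size factors, or without J0_RIPK3 2, 4 members were called. Bhlhe41 was added in both, with Per2 (0.25) under the former and Nr1d1 (-0.25) under the latter. Over all genes, DESeq2 size factors called 2481 higher and 1950 lower, and leaving out 1 library gave 3982 to 4185 calls.

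Among undifferentiated cells, RIPK3-/- cells had higher Nr1d1, Nr1d2, Tef and Bhlhe41 and lower Arntl than control. These are also the members that the authors list for this pair, so the number called largely repeats their filter. The log2 differences were 0.35 ± 0.08 for Nr1d1 (adjusted p = 0.000636), 0.35 ± 0.06 for Nr1d2 (1.09e-05), 0.32 ± 0.09 for Bhlhe41 (0.00331), 0.14 ± 0.03 for Tef (0.0011) and -0.34 ± 0.07 for Arntl (0.000293). Per1, Per2 and Dbp had -0.09, -0.05 and 0.09 and did not pass. In 1 fit over all 6 groups, which does not hold Bhlhe41, the calls of Arntl (adjusted p = 0.0769), Tef (0.16) and Nr1d2 (0.291) were lost. So 4 of 8 were called higher and 1 lower, against a background of 28.3% higher and 27.4% lower among 11044 genes, and the median absolute difference was 0.23 for members and 0.18 over all genes.

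Undifferentiated MLKL-/- cells also had higher Nr1d1, Tef and Bhlhe41 than control, and higher Dbp. Arntl was called lower as well, but the authors list only the other called members for this pair. Arntl thus did not reach their adjusted p of 0.05. The log2 differences were 0.76 ± 0.09 for Bhlhe41 (adjusted p = 0.000193), 0.61 ± 0.08 for Nr1d1 (0.000428), 0.53 ± 0.14 for Dbp (0.00708), 0.29 ± 0.06 for Tef (0.00263) and -0.35 ± 0.12 for Arntl (0.0266). The call of Arntl was lost when any 1 control library was left out (adjusted p from 0.0525 to 0.0805). Nr1d2 had 0.38 ± 0.19 (adjusted p = 0.097), and without J0_MLKL 2, the library that stands apart, it was called at 0.60 and Per1 at 0.18, making 7 of 8 called. Over all genes, leaving out 1 library gave 3009 to 3419 calls. Without that library Arntl differed by -0.22 and Dbp by 0.36, both still called. Per1 and Per2 had 0.11 and -0.13 with all libraries and did not pass. Among 3824 genes tested, calls were 40.4% higher and 43.2% lower, beside 4 higher and 1 lower of 8 members. The median absolute difference was 0.37 for members and 0.56 for all genes. Both knockouts were compared with the same control libraries.

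Among differentiated cells, RIPK3-/- cells had higher levels of 7 of 9 members and lower Arntl. The authors list every called member for this pair except Per2. Dbp was 1.74-fold higher (0.81 ± 0.05, adjusted p = 2.49e-11), Per3 1.51-fold (0.61 ± 0.06, 5.11e-09) and Bhlhe41 1.49-fold (0.59 ± 0.08, 1.17e-06). Tef (0.32 ± 0.04), Nr1d2 (0.20 ± 0.05), Nr1d1 (0.16 ± 0.05) and Per2 (0.16 ± 0.06, adjusted p = 0.0199) were higher by less, and the call of Per2 was lost without J7_CTL 3 (0.0696) or J7_RIPK3 3 (0.0829). Arntl was 1.38-fold lower (-0.45 ± 0.07, adjusted p = 7.18e-06). Per1, at -0.10 ± 0.05 (adjusted p = 0.0712), did not pass; without J7_RIPK3 3 it was called at -0.15. In 1 fit over all 6 groups the calls of Nr1d1 (adjusted p = 0.085), Nr1d2 (0.493) and Per2 (0.596) were lost. Over 11170 genes, calls were 29.6% higher and 29.5% lower. The median absolute difference was 0.32 for members and 0.22 over all genes.

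Differentiated MLKL-/- cells had less Arntl than control by the widest margin of any member in any of the 4 knockout comparisons. Arntl was 5.44-fold lower (log2 difference -2.35 ± 0.21, adjusted p = 0.000108), and -2.23 without J7_MLKL 3. Dbp was 2.82-fold higher (1.60 ± 0.20, adjusted p = 0.000386), Per3 2.05-fold (1.14 ± 0.25, 0.00431) and Tef 1.96-fold (1.08 ± 0.11, 0.000209). Without J7_MLKL 3 those differences were 1.32, 1.35 and 1.14. Per1 differed by -0.36 ± 0.13 (adjusted p = 0.0307), a call lost when any 1 control library was left out (0.06 to 0.0614). Per2 and Nr1d2 rest on the third library: with it their differences were 0.34 ± 0.33 (adjusted p = 0.356) and 0.57 ± 0.29 (0.0994), and without it 0.63 and 0.83, both called, which brings the called members to 7. Leaving out 1 library gave 6420 to 7219 calls over all genes in this comparison. Nr1d1 had -0.08 ± 0.10 (adjusted p = 0.455), although its 3 libraries all lay below those of control, and in 1 fit over all 6 groups it was called lower at -0.35. With 48.5% of 7263 genes called higher and 46.4% lower, 3 higher and 2 lower calls among 8 members are fewer than the background share. Those calls fall on the members that the authors list for this pair, so their number largely repeats that filter. The median absolute difference was 0.82 for members and 1.21 for all genes. The adipocyte marker sums given above differ between these groups, and their part in these differences was not tested.

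**Figure D4:**
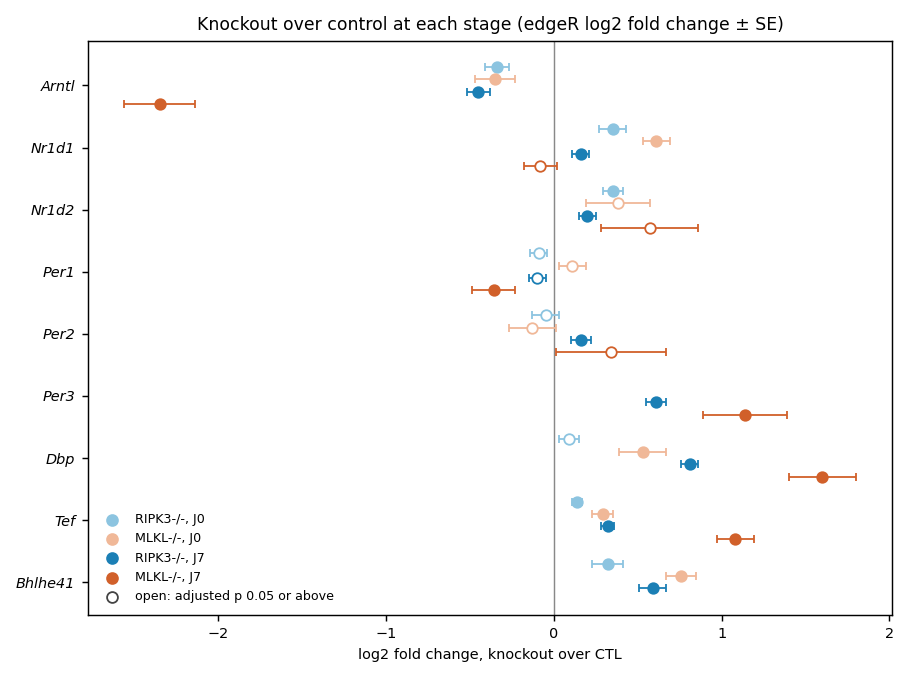
The log2 fold change of each knockout over control (x axis, ± SE) for each clock gene (y axis) at J0 (pale) and J7 (dark); open points did not pass the adjusted p of 0.05. Arntl lies left of 0 in all 4 comparisons and Tef right of 0 in all 4, and the widest differences are those of Arntl (-2.35) and Dbp (1.60) in J7_MLKL.

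Other genes of the clock, 18 in a list of further core, kinase and ubiquitin ligase genes, were read beside the members. In control cells 10 of 15 tested rose with differentiation and 5 fell, where 48.2% of all genes tested rose and 47.6% fell, and the median absolute change was 0.92, beside 0.84 for all genes. Nearly every tested gene was called at this step, so the number called says little about the list. Rora, which codes for a receptor that activates Arntl at the sites REV-ERB occupies, rose by 1.23 ± 0.06. Bhlhe40, the close relative of Bhlhe41, rose by 2.55 ± 0.04, Nfil3, a D-box repressor, by 1.80 ± 0.06, Cry2 by 0.82 ± 0.04 and Clock by 0.62 ± 0.04. Arntl2, the paralogue of Arntl, fell by 0.92 ± 0.10, and Csnk1e, a kinase of PER proteins, fell by 0.39 ± 0.05. In RIPK3-/- cells 8 of 15 rose and 6 fell, where 49.3% of all genes tested rose and 48.5% fell. Nfil3 rose there by 2.51 ± 0.08 and Bhlhe40 by 2.23 ± 0.04. Only 5 of the 18 could be tested in MLKL-/- cells and all 5 rose, where 35.8% of 3075 preselected genes rose and 30.9% fell. With so few tested, the count says little about the list. Among the 5, Ciart rose by 1.38 ± 0.30, Bhlhe40 by 0.73 ± 0.09, Csnk1e by 0.53 ± 0.12 and Cry2 by 0.52 ± 0.11.

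At J7, MLKL-/- cells had 3 of 10 tested genes of that list higher than control and 6 lower, beside 48.5% and 46.4% of all genes tested. Bhlhe40 was 82.4 CPM on average in J7_MLKL and 233 CPM in J7_CTL, a log2 difference of -1.40 ± 0.09 (adjusted p = 3.18e-05). Nfil3 differed by -1.32 ± 0.14 and Cry2 by -0.70 ± 0.10, whereas Csnk1e differed by 1.03 ± 0.13 and Arntl2 by 0.92 ± 0.27. Arntl2 ranged from 7.49 to 15.6 CPM in J7_MLKL and from 6.55 to 7.05 CPM in J7_CTL. Npas2, which can replace CLOCK as the partner of BMAL1, had 35, 39 and 56 reads in J7_CTL, 5, 6 and 4 reads in J7_RIPK3 and 2, 0 and 0 reads in J7_MLKL. Its counts are too low for a precise fold. In J7_RIPK3 6 of 16 were higher than control and 5 lower, beside 29.6% and 29.5% of all genes tested. Ciart, a repressor of BMAL1 and CLOCK, differed there by 0.74 ± 0.15 and Clock by 0.35 ± 0.04. At J0, 4 of 15 were higher and 6 lower in RIPK3-/- cells, beside 28.3% and 27.4% of all genes tested. In MLKL-/- cells 2 of 6 were higher and 1 lower at J0, beside 40.4% and 43.2%. Rora differed there by 1.14 ± 0.26 and Cry2 by -0.46 ± 0.06. The libraries of J0_MLKL varied widely for Rora, from 25.8 to 55.8 CPM, beside 19.7 to 21.5 CPM in J0_CTL. The change with differentiation differed from control in 10 of 16 genes in RIPK3-/- cells (6 higher, 4 lower), beside 18.4% higher and 20.6% lower over all genes tested. In MLKL-/- cells it differed in 4 of 5 (1 higher, 3 lower, among them Bhlhe40 by -1.88 ± 0.10), beside 39% higher and 26.3% lower.

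Clock output genes and genes that hormones induce alongside Per1 were read in the same way. Nampt, the rate-limiting enzyme of NAD salvage and a target of BMAL1 and CLOCK, rose by 3.22 ± 0.04 in control, 3.18 ± 0.05 in RIPK3-/- and 1.49 ± 0.09 in MLKL-/- cells, and in J7_MLKL it differed from control by -1.80 ± 0.10. The deubiquitinase gene Usp2 (-1.72 ± 0.20) and the P450 reductase gene Por (-1.20 ± 0.20) were lower there as well, and the cell cycle kinase gene Wee1 was higher (0.61 ± 0.13), so that 3 of these 4 outputs were lower and 1 higher, where 46.4% of all genes tested were lower and 48.5% higher. Of 10 genes known to respond to glucocorticoid or cAMP, 8 of 9 tested rose in control cells with differentiation and 1 fell, against 8 and 2 of 10 in RIPK3-/- cells, and 5 of 6 rose in MLKL-/- cells with none falling. The shares of all genes that rose were 48.2, 49.3 and 35.8% in control, RIPK3-/- and MLKL-/- cells, and those that fell 47.6, 48.5 and 30.9%. Zbtb16 rose by 4.19 ± 0.08 in control cells and Dusp1, which codes for a MAP kinase phosphatase, by 2.34 ± 0.10, while Sgk1, a kinase gene induced by glucocorticoid, fell by 0.93 ± 0.04. In J7_MLKL, 3 of 7 tested were lower than control, among them Dusp1 (-0.77 ± 0.13), and Sgk1 was higher (1.61 ± 0.09), again beside 46.4% of all genes lower and 48.5% higher.

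For the 7 members with counts in all 18 libraries, the genes of most similar pattern were sought by Pearson correlation of log2 CPM (0.5 added) among 2487 other protein-coding genes. The 18 libraries share their 6 groups, so r mainly follows the group levels and is given as a description. Nr1d1 was closest to Natd1, Serpina3c and Cfd, the gene of the adipocyte serine protease adipsin (r = 0.99 each), and Per1 to Hif3a, Col4a1 and Lgals12 (0.99 each). Tef was closest to Pde4a, mt-Co1 and Plcl1 (0.96 each), and Per2 to Sh2d4b (0.96), Capn15 (0.95) and Chka (0.94). Dbp was closest to Akap8l (0.95), Vmp1 (0.95) and Ier3 (0.94), Arntl to Morf4l2 (0.93), Copg1 (0.92) and Ldlrad3 (0.92), and Nr1d2 to Capn15 (0.90), C2cd2 (0.89) and Adarb1 (0.89). Capn15 stood in the lists of both Per2 and Nr1d2.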

How the data were processed

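RNA of 3T3-L1 cells was sequenced in 18 libraries, from total RNA by Illumina protocols per the labels. The submitters' processing notes name build mm10, the aligner HISAT2, the counter featureCounts 1.5.0-p3, FastQC 0.11.9 and DESeq2. The 7 deposited comparison tables hold raw read counts per gene and library, the authors' normalised counts (a signal: counts divided by size factors) and the authors' FPKM. They also hold the authors' log2 fold change, p-value and adjusted p-value, and other columns with coordinates and gene length. The 14 deposited enrichment tables were not used.

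Counts were joined by gene identifier: 15194 genes, 2802 with counts in all 18 libraries, and 0 of 88950 repeated counts differed. Library totals were recovered from count, FPKM and length. Each comparison was fitted on all genes with counts in its groups, with edgeR 4.0.16 in R 4.3.3 (filterByExpr, TMM factors, quasi-likelihood F test, Benjamini-Hochberg adjustment, called at adjusted p under 0.05), and the step was tested on simulated data. Standard errors come from the F statistic. CPM are reads per M reads of the library total, as mean ± SD of 3 libraries, and folds are ratios of mean CPM, without TMM factors. Differences of differences were fitted over 4 groups. Alternatives were DESeq2 1.42.0 (its test and its size factors), total reads, the authors' size factors, no filter, 1 fit over 6 groups, a replicate block and leaving out libraries. Intervals of counting error were not computed; the reads behind each library's value set its precision.

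Named genes are the 10 members, 3 fixed lists (18 further clock genes, 4 outputs, 10 hormone-responsive genes) and the 3 protein-coding genes closest to each member by correlation. The members and lists were chosen with earlier results of these data known. Promoter windows are from RefSeq (GRCm38.p6) and were matched by symbol. A gene of the lists is not reported here.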

Additional observations from a re-analysis of the deposited data

Results flagged for a closer look

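For 7 results the change with differentiation in a knockout differed from that in control cells by the test of the difference itself (edgeR, adjusted p under 0.05). In MLKL-/- cells the J7 minus J0 change of Arntl differed by -2.10 on the log2 scale, that of Nr1d1 by -0.79 and that of Per1 by -0.58, while those of Dbp and Tef differed by 0.96 and 0.68. In RIPK3-/- cells the changes of Dbp and Tef differed by 0.72 and 0.19. The changes of Dbp and Tef thus lay above those in control cells in both knockouts, whose tests share the control libraries. For Tef in RIPK3-/- cells this was a smaller fall with differentiation. Without the libraries J0_MLKL 2 and J7_MLKL 3 the values for MLKL-/- cells were -2.08 for Arntl, -0.78 for Nr1d1, -0.52 for Per1, 0.89 for Dbp and 0.74 for Tef.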

How the results depend on the processing

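Over the alternatives, 954 single-gene values kept direction and side of the threshold, 33 passed it where the reported value had not, 28 no longer passed and 14 changed sign, all of them for values that were not called. Leaving out 1 library gave -0.11 to 0.02 for Per2 in J0_RIPK3 against J0_CTL (0.02 without J0_RIPK3 2) and -0.21 to 0.02 in J0_MLKL against J0_CTL (0.02 without J0_MLKL 2). The difference of Per1 in RIPK3-/- cells changed to 0.03 with DESeq2 size factors and with the DESeq2 test, to 0.01 in 1 fit over 6 groups, and ranged from -0.06 to 0.06 with 1 library left out. The difference of Nr1d2 in MLKL-/- cells changed to -0.24 with DESeq2 size factors and with the DESeq2 test, to -0.02 in 1 fit over 6 groups, and ranged from -0.27 to 0.38 with 1 library left out. In 1 fit over 6 groups, which tests only genes with counts in all 18 libraries (7 members), 1 member was called in J0_RIPK3 against J0_CTL (5 in the separate fit), 3 in J7_RIPK3 against J7_CTL (8) and 1 for the RIPK3-/- difference in change (2). The same fit, over the 2799 genes it tested, called 2511 in J7_CTL against J0_CTL, where the separate fit called 11555 of 12055. In J7_RIPK3 against J0_RIPK3 it called 2589 (separate fit 11533 of 11798), and in J0_RIPK3 against J0_CTL 957 (6159 of 11044). In J0_MLKL against J0_CTL it called 1992 (3196 of 3824), and in J7_RIPK3 against J7_CTL 1136 (6600 of 11170). In J7_MLKL against J7_CTL it called 2536 (6893 of 7263), and for the RIPK3-/- difference 642 (4298 of 11027). The smaller number of genes tested is built into that fit. The share of tested genes called was lower too in each of these comparisons. DESeq2 size factors called 4 members for the RIPK3-/- difference, and leaving out 1 library called 2 to 4. Where only 1 of the libraries that stand apart enters a comparison, leaving it out is the same as the single-library alternative.

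Replicate numbers did not pair the samples: same-number correlations of deviations from group means were 0.456, -0.694 and -0.548 between J0_MLKL and J7_MLKL and between -0.111 and 0.105 elsewhere. A replicate block left 5 of 7 calls in J7_MLKL against J0_MLKL (Per2 1.11, Nr1d2 0.98, neither called) and changed no other member's call. In that pair the block called 1796 of all 3138 genes tested.

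Depth was least for Arntl in J7_MLKL, with 368 reads over 3 libraries; every other member had more reads in every group. Comparisons with MLKL-/- cells rest on fewer and more strongly preselected genes. The labels do not give the hour of collection or say whether it was the same for all libraries of a stage, so no phase can be read.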
